A study of Mus musculus with 82 samples.

Results

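EoV5-only sites are peaks of Eomes carrying a V5 tag that share no base with a peak of 3 other tagged T-box proteins. They were selected on measured peak positions: a peak of the EoV5 list was taken when no peak of the EoGFP, BraGFP or EoVP16 list overlapped it by 1 bp. The rule found 10408 sites among the 38193 EoV5 peaks on the 21 assembled mouse chromosomes, a share of 27.3%. The other 27785 EoV5 peaks, which lie under a peak of at least 1 other list, are the comparison throughout.

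The series holds 82 samples, of which 66 are RNA-seq, 12 ChIP-seq and 4 ATAC-seq, and only ChIP-seq peak lists were used here. All 4 constructs were induced with doxycycline (5 µg/ml per the growth protocol) in mouse embryonic stem cells of the A2lox.Cre line that lack both Eomes and Brachyury (dKO), so every group carries this double knockout. The cells were grown as embryoid bodies, with activin A at 30 ng/ml, and were taken on day 5. EoV5 (Eomes with a V5 tag, 1 library) is the source of the sites. EoVP16 (Eomes joined to the VP16 activation domain, 1 library) was pulled down by the same V5 antibody, whereas EoGFP and BraGFP (Eomes and Brachyury with GFP, 2 libraries each behind 1 list) were pulled down by an antibody against GFP. The constructs were inducible transgenes in a single parental line and not the endogenous proteins. These lists do not state library depth, no list has a replicate, and peaks of 1 library are not replicates. All intervals therefore cover counting error only, and no p-value is given.

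Eomes (Eomesodermin) and Brachyury, encoded by T, are transcription factors of the T-box family. They act as cells of the epiblast leave through the primitive streak. Eomes is required for definitive endoderm and for the earliest cardiac mesoderm, and Brachyury for the later, posterior mesoderm. T-box proteins share a DNA-binding domain that reads a short sequence with the core GGTGTG, and much of their binding in these cell types lies in enhancers away from gene starts.

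Few EoV5-only sites lay at gene starts, and the promoters they did lie in were poor in CpG. Of 32851 RefSeq promoter windows of build GRCm38.p6 (250 bases before to 50 after a transcription start), 53 held the summit of an EoV5-only site, at 50 sites, and 30 of these windows belonged to coding genes. The windows of 4 of those genes follow, with the 6-base core GGTGTG in capitals; its reverse complement was searched too and was not in these windows. Scgb2b15 has the tallest such site among coding windows that hold the core, Caly and Gzmm are the coding windows that hold the 7-base motif GGTGTGA, and Sfrp5 is a secreted Wnt antagonist described below. Cdkn1a, a cell-cycle inhibitor gene, is given as the comparison: it is the tallest coding window under another EoV5 peak that has the median CpG number of that group, and its peak is in all 4 lists.
Scgb2b15, chr7:32829604-32829903, minus strand: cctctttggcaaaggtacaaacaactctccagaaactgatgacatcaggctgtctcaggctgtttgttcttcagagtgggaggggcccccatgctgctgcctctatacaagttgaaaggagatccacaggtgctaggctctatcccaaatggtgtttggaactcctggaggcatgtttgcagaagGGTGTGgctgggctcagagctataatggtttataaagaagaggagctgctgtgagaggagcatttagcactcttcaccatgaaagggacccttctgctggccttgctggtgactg
Caly, chr7:140082499-140082798, minus strand: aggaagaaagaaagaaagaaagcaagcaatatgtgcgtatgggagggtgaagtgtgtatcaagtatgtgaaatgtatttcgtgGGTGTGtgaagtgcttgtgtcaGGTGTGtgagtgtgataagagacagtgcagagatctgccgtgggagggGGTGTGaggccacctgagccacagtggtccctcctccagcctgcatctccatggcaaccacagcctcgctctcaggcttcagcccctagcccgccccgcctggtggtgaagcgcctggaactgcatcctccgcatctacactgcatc
Gzmm, chr10:79693576-79693875, plus strand: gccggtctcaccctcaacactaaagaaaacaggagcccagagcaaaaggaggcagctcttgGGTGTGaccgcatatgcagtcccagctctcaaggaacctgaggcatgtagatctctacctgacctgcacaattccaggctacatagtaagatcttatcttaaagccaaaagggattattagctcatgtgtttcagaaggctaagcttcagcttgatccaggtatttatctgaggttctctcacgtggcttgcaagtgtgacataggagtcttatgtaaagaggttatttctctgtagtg
Sfrp5, chr19:42202203-42202502, minus strand: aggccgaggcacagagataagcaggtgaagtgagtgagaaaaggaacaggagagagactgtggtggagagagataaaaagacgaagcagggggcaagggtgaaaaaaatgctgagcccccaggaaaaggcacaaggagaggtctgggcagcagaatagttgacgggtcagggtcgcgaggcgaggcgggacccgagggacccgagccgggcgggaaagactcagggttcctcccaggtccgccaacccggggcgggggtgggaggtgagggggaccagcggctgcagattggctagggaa
Cdkn1a, chr17:29093519-29093818, plus strand: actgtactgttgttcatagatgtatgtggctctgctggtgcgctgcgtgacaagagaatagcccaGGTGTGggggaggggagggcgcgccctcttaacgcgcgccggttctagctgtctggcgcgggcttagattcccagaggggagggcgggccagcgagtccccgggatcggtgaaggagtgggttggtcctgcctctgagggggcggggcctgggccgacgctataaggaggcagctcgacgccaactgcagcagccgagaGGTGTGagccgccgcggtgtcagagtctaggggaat

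Scgb2b15, a secretoglobin gene, had an EoV5-only site of 82 fragments in height (pileup, 95% exact Poisson interval 65.2 to 101.8) whose summit lay 39 bases from its single core. Its family has near-identical copies, and sites were also listed at Scgb2b33 (74 fragments) and Scgb2b17 (72 fragments), so reads among these copies could be shared and the values are uncertain. Caly, which encodes a neuronal endocytic protein, held 3 cores, and the summit of its site (81 fragments, 64.3 to 100.7) lay 8 bases from the nearest. That nearest core is followed by a T, so it is not part of the motif GGTGTGA. In Caly the motif is at the last core of the printed window, which lies farther from the summit. Gzmm, which encodes a granule protease of lymphocytes, had a site of 68 fragments (52.8 to 86.2) with its summit 183 bases from the core. Sfrp5 had a site of 99 fragments (80.5 to 120.5) and no core in its window. The Cdkn1a window held 2 cores under an EoV5 peak of 225 fragments (196.6 to 256.4), with the summit 7 bases from the nearer one. The tallest EoV5-only summits in coding windows were at Il1rl1, an interleukin-33 receptor gene (116 fragments), and Cd3g, a T-cell receptor subunit gene (112 fragments); neither window holds the core.

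The median window under an EoV5-only summit held 3 CpG dinucleotides (quartiles 2 and 8, 53 windows), against 23 under the other EoV5 summits (15 and 30, 2312 windows) and 7 in all promoter windows. Its GC content had a median of 48% under EoV5-only summits, against 62.3% under the other EoV5 summits. No EoV5-only window held 25 CpG or more, whereas 66% of them held at most 4 and 6.40% of the other windows did.

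**Figure D1:**
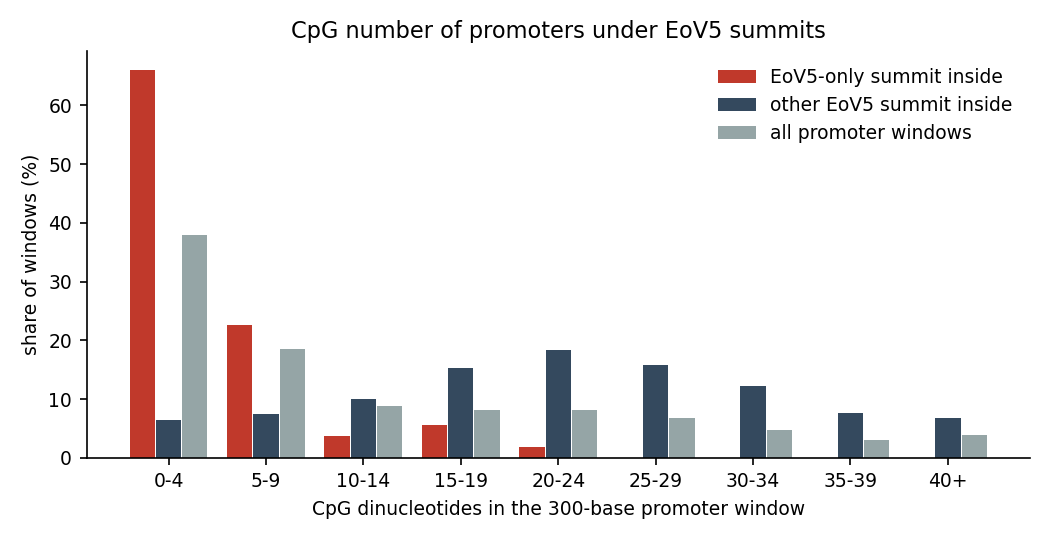
Share of promoter windows (percent, bars from 0) by number of CpG dinucleotides in the 300-base window, for windows with an EoV5-only summit inside (53), with another EoV5 summit inside (2312) and for all 32851 windows. The EoV5-only windows gather at 0 to 4 CpG (66%), where 6.40% of the other EoV5 windows lie.

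The core GGTGTG on either strand was present in 39.6% of the windows under EoV5-only summits (21 of 53, 95% Wilson interval 27.6 to 53.1%), against 24.3% under the other EoV5 summits (22.6 to 26.1%) and 19% of all promoter windows. CpG content moved with this share, and its part in the difference was not tested further than by a split at the median of all windows, chosen after seeing the data. Among windows with at most 7 CpG, the share was 38.5% under EoV5-only summits (15 of 39, 24.9 to 54.1%), against 36.4% under the other EoV5 summits (30.7 to 42.5%) and 20.5% in all promoter windows of that kind. Among windows with more CpG it was 42.9% under EoV5-only summits (6 of 14, 21.4 to 67.4%), against 22.8% under the other EoV5 summits (21 to 24.7%) and 17.5% in all such windows. The 7-base motif GGTGTGA, which contains the core, was in 9.43% of the windows under EoV5-only summits (5 of 53), 8.56% under the other EoV5 summits and 3.98% of all windows. In the windows with at most 7 CpG it was in 5.13% under EoV5-only summits (2 of 39, 1.42 to 16.9%) and 19.6% under the other EoV5 summits (15.2 to 25%). In the windows with more CpG it was in 21.4% under EoV5-only summits (3 of 14, 7.57 to 47.6%) and 7.23% under the other EoV5 summits (6.19 to 8.42%). The motif share also moved with height. Under the other EoV5 summits it was 4.13% at 61 to 66 fragments, 3.71% at 67 to 75 and 7.25% at 76 to 99. It was 11.8% at 100 to 156, 17.9% at 157 to 272 and 23.6% at 273 and over. Under EoV5-only summits the motif was in 0 of 14, 1 of 13, 2 of 15, 2 of 9 and 0 of 2 windows from 61 to 272 fragments, too few to compare. Some windows overlap and share a summit. Counted once per site, the motif was at 4 of 50 EoV5-only sites (8%, 3.15 to 18.8%) and 8.66% of the other EoV5 sites (7.53 to 9.96%), and the core at 20 of 50 EoV5-only sites (40%, 27.6 to 53.8%) and 25.2% of the other EoV5 sites (23.3 to 27.1%). A match describes the letters of the window and is not a mapped binding site.

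EoV5-only sites were low peaks. Their pileup, the number of fragments stacked at the summit, ranged 61 to 385 with a median of 79 (quartiles 68 and 98), against 61 to 3296 with a median of 114 (81 and 188) in the other EoV5 peaks. Their fold over the background of the caller had a median of 11.3, against 16.3 in the other EoV5 peaks. Since the EoV5 list was kept above a minimum pileup of 60 and the other lists above 120 (EoGFP), 40 (BraGFP) and 36 (EoVP16), absence from a list means no peak above its minimum and not absence of binding. These minimums are not comparable between libraries of unknown depth.

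The share of EoV5 peaks that were EoV5-only was smaller in each taller band. It was 48.9% (47.4 to 50.3%) at 61 to 66 fragments, 43.4% at 67 to 75, 36% at 76 to 99, 22.3% at 100 to 156, 6.46% at 157 to 272 and 0.475% (18 of 3790, 0.301 to 0.75%) at 273 and over. As the 27.3% over all heights is a mean over this gradient, location was also compared within each band. At the lowest pileup of the list, 61 fragments, 394 of 790 peaks were EoV5-only.

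**Figure D2:**
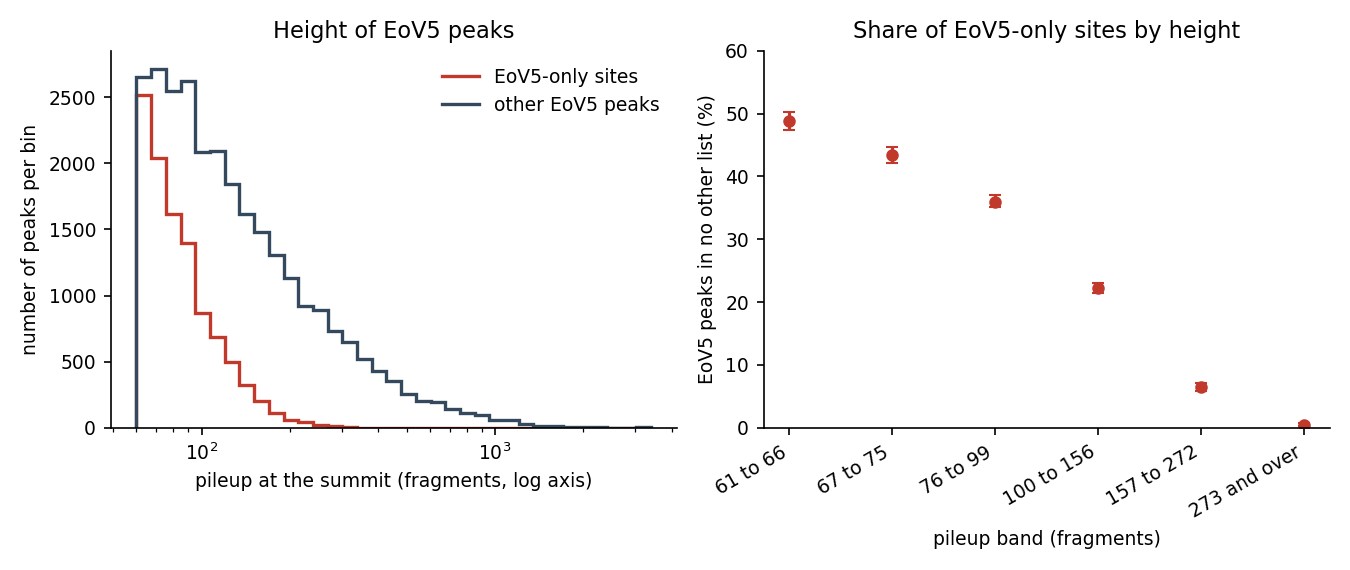
Left, number of EoV5 peaks by pileup at the summit (fragments, log axis) for EoV5-only sites and the other EoV5 peaks. Right, percent of EoV5 peaks in no other list by pileup band, with 95% Wilson intervals: 48.9% in the lowest band and 0.475% in the highest.

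The overlap rule left few sites near its edge. The smallest gap from an EoV5-only site to a peak of the other lists was 12 bp, and 20 of the sites had a gap of at most 100 bp. Among the peaks left out, the smallest overlap was 8 bp, and 11 overlapped by at most 100 bp. The median gap was 9.74 kb. A peak of the 3 lists lay within 1 kb of 862 sites (8.28%), within 5 kb of 3485 (33.5%) and within 10 kb of 5270 (50.6%), and none lay within 50 kb of 1250 sites (12.0%). Within 10 kb, 33.3% of the sites had an EoVP16 peak, 32.7% an EoGFP peak and 25.7% a BraGFP peak. These lists differ in size, with 36203 EoVP16, 30129 EoGFP and 27588 BraGFP peaks. No background share was computed for these distances.

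EoV5-only sites lay farther from gene ends than the other EoV5 peaks did. The share of the genome near gene ends was not computed, so the comparison is with those peaks only. Of the sites, 2.25% (234 of 10408, 1.98 to 2.55%) had their midpoint within 1 kb of a coding gene's start or end, against 21.2% (5897 of 27785, 20.7 to 21.7%) of the other EoV5 peaks. The difference was -19 points (95% Newcombe interval -19.5 to -18.4). Measured from the summit to a RefSeq transcription start, the shares were 1.85% of EoV5-only sites and 20.1% of the other EoV5 peaks. Elsewhere inside coding genes lay 45.3% of EoV5-only sites and 39.7% of the other EoV5 peaks, and outside them 52.4% of EoV5-only sites and 39.1% of the other EoV5 peaks. The median distance to a gene end was 35.9 kb from EoV5-only sites and 15.9 kb from the other EoV5 peaks. The gene table gives no exons, so intronic and exonic sites were not separated.

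The gap was there within bands of height. In the lowest band, 2.57% of EoV5-only sites (1.99 to 3.31%) and 35.1% of the other EoV5 peaks (33.2 to 37.1%) lay at gene ends. The shares were 1.67% of EoV5-only sites and 19.9% of the other EoV5 peaks at 100 to 156 fragments, and 2.17% of EoV5-only sites and 9.51% of the other EoV5 peaks at 157 to 272. In the highest band, 0 of 18 EoV5-only sites lay at gene ends, 95% Wilson interval 0 to 17.6%, against 5.38% of the other EoV5 peaks, and the interval of that difference (-6.15 to 12.2 points) includes 0. EoV5-only sites were about equally rare at gene ends at every height, whereas the share among the other EoV5 peaks was 36% at 67 to 75 fragments and smaller in each taller band.

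**Figure D3:**
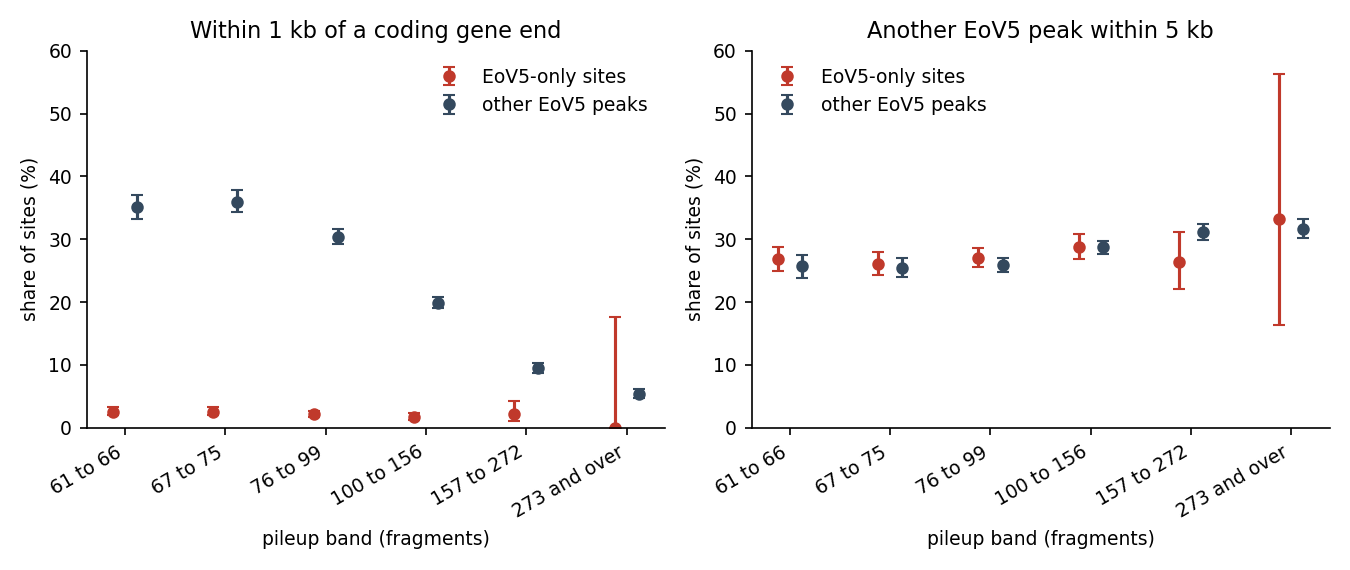
Percent of EoV5-only sites and of the other EoV5 peaks by pileup band (fragments), with 95% Wilson intervals. Left, midpoint within 1 kb of a coding gene end, where EoV5-only sites stay between 0 and 2.57% and the other EoV5 peaks between 5.38 and 36%; right, another EoV5 peak within 5 kb, where the intervals of the groups overlap in every band.

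Over all heights, the share at gene ends was below 5% in the 4 classes of EoV5 peaks outside the EoVP16 list and above it in the 4 classes inside. It was 2.25% in EoV5-only sites, 3.65% (3.21 to 4.14%) in peaks shared with EoGFP alone, 3.87% (2.57 to 5.79%) with BraGFP alone and 4.21% (2.97 to 5.95%) with EoGFP and BraGFP. In the classes inside the EoVP16 list it was 9.25% (8.28 to 10.3%) with EoVP16 alone, 23.2% with EoGFP and EoVP16, 23.3% with BraGFP and EoVP16, and 45.7% (44.5 to 47.0%) in all 4 lists. By this measure the interval of EoV5-only sites lay below that of each other class, by a narrow margin for BraGFP alone. By transcription start the share was 1.85% (1.61 to 2.13%) in EoV5-only sites and 2.64% (1.61 to 4.31%) with BraGFP alone, whose intervals overlap. Height moved with these classes: the median pileup was 79 in EoV5-only sites, 79.5 with BraGFP alone, 81 with EoVP16 alone, 131 with EoGFP alone and 112 in all 4 lists. At equal height the classes were less clearly split by the EoVP16 list. At 61 to 66 fragments, 2.57% of EoV5-only sites (1.99 to 3.31%) were at gene ends, against 2% with BraGFP alone (0.55 to 7%), 4.88% with EoGFP and BraGFP (1.35 to 16.1%), 10.7% with EoGFP alone (7.53 to 14.9%) and 13.9% with EoVP16 alone (11.4 to 17%). In the other classes of that band it was 17.3% with BraGFP and EoVP16, 53.6% with EoGFP and EoVP16, and 63.5% in all 4 lists. At 100 to 156 fragments it was 1.67% in EoV5-only sites (1.2 to 2.31%), against 3.37% with BraGFP alone (1.15 to 9.45%), 3.48% with EoGFP alone (2.78 to 4.36%), 5.07% with EoGFP and BraGFP (2.85 to 8.85%) and 5.23% with EoVP16 alone (3.83 to 7.09%). In both bands the interval of EoV5-only sites overlapped that of BraGFP alone and lay below those of EoGFP alone and EoVP16 alone.

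**Figure D4:**
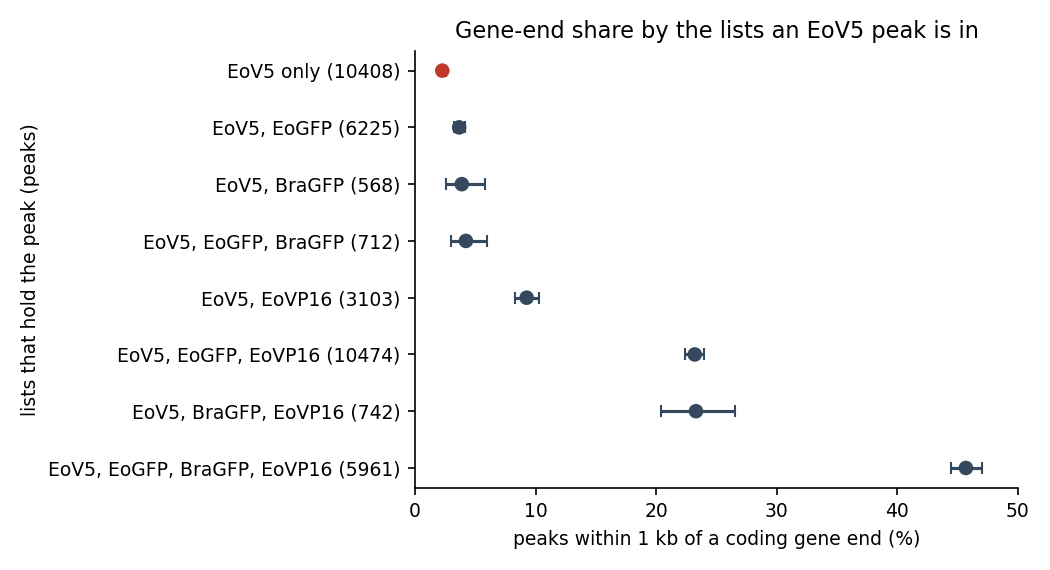
Percent of EoV5 peaks within 1 kb of a coding gene end, by the lists that hold the peak (number of peaks in brackets), with 95% Wilson intervals. Over all heights, the 4 classes outside the EoVP16 list, with EoV5-only sites at the top, lie between 2.25 and 4.21%, and the 4 classes inside it between 9.25 and 45.7%.

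EoV5-only sites were also narrow. Their median width was 571 bp (quartiles 445 and 762.2), against 958 bp (665 and 1421) in the other EoV5 peaks. Some classes were nearly as narrow: the median was 598 bp with BraGFP alone, 691 bp with EoVP16 alone and 761 bp with EoGFP alone. It was 795.5 bp with EoGFP and BraGFP and 1040 bp with BraGFP and EoVP16. The widest classes were EoGFP and EoVP16 (1050 bp) and all 4 lists (1387 bp). In the lowest band the medians were 503 bp in EoV5-only sites and 850 bp in the other EoV5 peaks, and at 100 to 156 fragments 651.5 bp in EoV5-only sites and 894 bp in the other EoV5 peaks. A narrower peak has fewer bases with which to meet another list, so width is not independent of the rule.

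EoV5-only sites had another EoV5 peak nearby slightly less often than the rest of the list. Another EoV5 peak was within 5 kb of 27.1% of them (26.3 to 28.0%) and of 28.4% of the other EoV5 peaks (27.8 to 28.9%). The difference of -1.27 points had an interval of -2.27 to -0.257, and within each band of height the interval included 0. Within 10 kb the shares were 41.6% of EoV5-only sites and 44.4% of the other EoV5 peaks (difference -2.8 points, -3.91 to -1.69). By height, this difference was -3.26 points (-5.65 to -0.855) at 100 to 156 fragments and -7.61 points (-12.6 to -2.37) at 157 to 272. In the other bands its interval included 0. No other EoV5 peak lay within 50 kb of 17.8% of EoV5-only sites (17.1 to 18.5%) and of 13.8% of the other EoV5 peaks (13.4 to 14.3%). Within 5 kb, for 20.6% of the sites such a neighbour was an EoV5 peak found in another list, and for 8.45% it was another EoV5-only site.

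The X chromosome had a larger share of EoV5-only sites than any autosome. Of its 638 EoV5 peaks, 264 were EoV5-only (41.4%, 37.6 to 45.2%), against 27% of the autosomal peaks (10144 of 37545, 26.6 to 27.5%) and a range from 22.3% on chromosome 19 to 30.1% on chromosome 1. The median pileup of EoV5 peaks was 99 on X and 99 on the autosomes. Within bands the share was 61.6% on X and 48.6% on autosomes at 61 to 66 fragments, and 64.5% on X and 43.1% on autosomes at 67 to 75. It was 54.4% on X and 35.7% on autosomes at 76 to 99, and 41.7% on X and 21.9% on autosomes at 100 to 156. In the taller bands it was 13.6% on X (7.98 to 22.3%) and 6.35% on autosomes at 157 to 272, and 0 of 77 on X (0 to 4.75%) and 0.485% on autosomes at 273 and over. X carried 638 of 38193 EoV5, 549 of 36203 EoVP16, 359 of 27588 BraGFP and 333 of 30129 EoGFP peaks. Of the 10 EoV5 peaks on Y, 0 were EoV5-only (95% Wilson interval 0 to 27.8%).

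**Figure D5:**
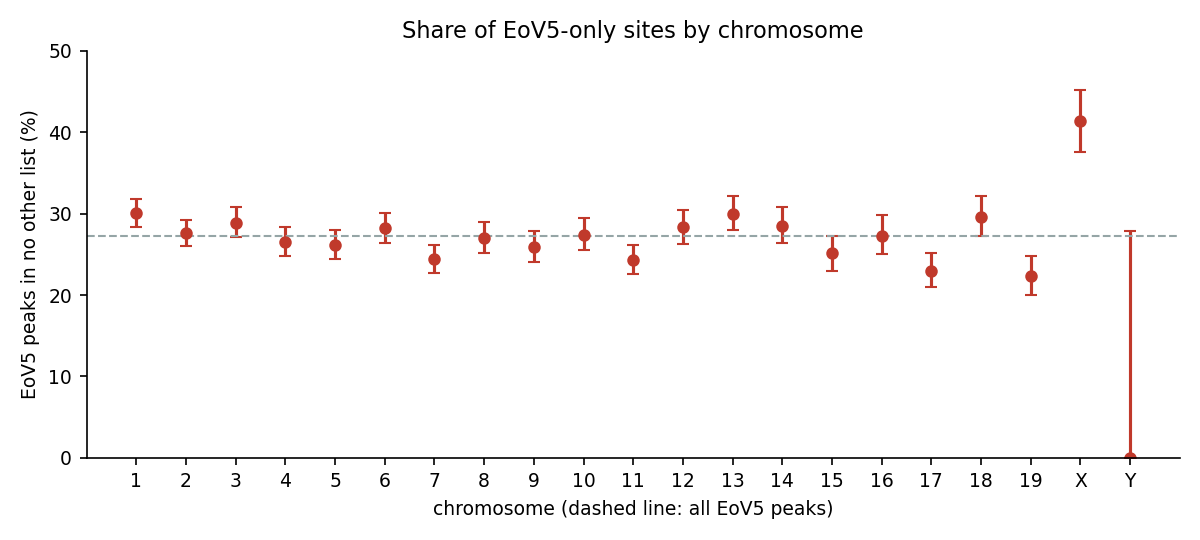
Percent of EoV5 peaks on each chromosome that are in no other list, with 95% Wilson intervals; the dashed line is the 27.3% over all EoV5 peaks. X stands at 41.4%, and the autosomes range between 22.3 and 30.1%.

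The 10 tallest EoV5-only sites were spread over 8 chromosomes, and 6 of them lay inside a coding gene. The tallest, of 385 fragments (347.5 to 425.4, fold 55.1), lay inside Lrp1b, a lipoprotein receptor gene, at chr2:42515745-42516335 and 72.7 kb from the nearest peak of another list, the farthest of the 10. Adamts3, which encodes a procollagen protease, held a site of 382 fragments (fold 54.7) that lay 1.28 kb from an EoGFP peak. Grk5, a receptor kinase gene, held one of 369 fragments, and the site nearest Emb, a cell-adhesion protein gene 38.8 kb away, had 342 fragments. Ntm, a neural adhesion protein gene, held a site of 307 fragments and Adamts16, another extracellular protease gene, one of 304. These heights differ by less than their Poisson intervals from one neighbour in the order to the next.

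In the other 4 tall sites, values of the caller's background differed. The site inside Akap9, a scaffold protein gene (302 fragments), had a fold of only 3.83 and a background of 78 fragments, computed from its pileup and fold, the highest among the EoV5-only sites. The site 29.3 kb from Dynlt1b, a dynein light chain gene, had 299 fragments at a background of 13.4, and the site 13.9 kb from Mob3b 302 fragments at 8.79. The site nearest Arg1, the arginase gene 113.4 kb away, had 298 fragments at the lowest background of the list, 6.01. A background above 5 times that lowest value was found at 5 of 10408 EoV5-only sites and at 2 of 27785 other EoV5 peaks.

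Among 21887 coding genes, 40.5% (39.8 to 41.1%) had an EoV5-only site within 50 kb of their span, and 83.0% had an EoV5 peak of any kind there. At least 2 EoV5-only sites were counted at 14.6% of genes and at least 10 at 20 genes. The number followed gene length: 28.3% of genes shorter than 10 kb and 81.7% of those over 200 kb had a site. The site density in these windows was 3.52 per Mb around genes shorter than 10 kb, 4.37 at 10 to 50 kb, 5.04 at 50 to 200 kb and 4.66 over 200 kb, so it did not follow length throughout. EoV5-only sites made up 16.5% of the EoV5 peaks counted around genes shorter than 10 kb and 31.4% of those around genes over 200 kb. In these shares and densities a peak near several genes was counted once for each gene, unlike in the list shares below.

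The 8 genes with the most sites were all long, at 490.1 to 1998 kb. Sdk1, a synaptic adhesion molecule, had 17 EoV5-only sites among 35 EoV5 peaks in and within 50 kb of it, with pileups from 63 to 167. Macrod2, an ADP-ribose hydrolase gene, had 16 of 33 (63 to 262), and Dab1, an adaptor of reelin signalling in neurons, 16 of 29 (66 to 183). Fhit, a tumour suppressor at a fragile site, had 15 of 29 (61 to 145), and Auts2, a gene of brain development, 14 of 43 (64 to 167). Prkce, a protein kinase C gene, had 13 of 21 (68 to 217), Arhgap26, a GTPase regulator gene, 12 of 36 (61 to 100), and Nckap5 11 of 19 (62 to 166), the last place being shared by other genes with 11 sites and given to the one with the tallest site. The tallest other EoV5 peak was taller than the tallest EoV5-only site at each of the 8 genes, from 227 fragments at Sdk1 to 1100 at Arhgap26.

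Around the 15 gene lists, the share of EoV5 peaks that were EoV5-only ranged between 8.96 and 31.0%, beside 25.0% of all EoV5 peaks within 50 kb of a coding gene. The lists and their genes were chosen with earlier results known, and a list with few peaks has a wide interval. The number of genes with a site in each list stands beside the 40.5% of all coding genes that had one within 50 kb. That number also depends on how many EoV5 peaks lie around the listed genes, which was not matched to all coding genes.

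Around definitive endoderm genes, 36 of 116 EoV5 peaks were EoV5-only (31.0%, 23.3 to 39.9%), and 12 of 16 genes had one, beside 40.5% of all coding genes. Cxcr4, the chemokine receptor used to mark definitive endoderm, had 6 EoV5-only sites among its 9 EoV5 peaks. Downstream of Cxcr4 they stood at 87, 108, 63 and 64 fragments, 31.9, 26.5, 9.51 and 0.728 kb from it, and upstream at 65 and 99 fragments, 43.6 and 49.8 kb from it. The tallest of its other EoV5 peaks had 301 fragments.

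Around anterior and cardiac mesoderm genes, 20 of 78 EoV5 peaks were EoV5-only (25.6%, 17.3 to 36.3%). Isl1, a LIM homeobox factor of cardiac progenitors, had 6 of 9, with pileups of 227 at 38.4 kb downstream, 66 at 5.56 kb downstream, 69 inside the gene, and 212, 67 and 158 at 12.0, 23.6 and 32.6 kb upstream. The tallest EoV5-only site at Isl1 (227 fragments, 198.4 to 258.5) was higher than its tallest other EoV5 peak, of 182 fragments. That peak has a counting error too. A count of 183, close to that of this peak, has an interval of 157.4 to 211.5. It overlaps that of the site, which alone does not decide the order, and the difference was not tested. Gata4, a zinc-finger factor of heart and endoderm, had 4 of 10, all low at 62 to 83 fragments.

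Around genes of the presomitic mesoderm, 6 of 67 EoV5 peaks were EoV5-only (8.96%, 4.17 to 18.2%), the smallest share of the 15 lists, and 4 of 16 genes had one. Rspo3, a secreted activator of Wnt signalling, had 3 of 6, at 63, 98 and 69 fragments, beside other EoV5 peaks of up to 527. Fgf4 had 1 of 4, at 64. The median pileup of all EoV5 peaks around the list was 106, and around the endoderm list 100. The lists were not compared within bands of height, so the part of height in their shares was not tested.

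Around primitive streak genes, 11 of 59 EoV5 peaks were EoV5-only (18.6%, 10.7 to 30.4%), and 6 of 14 genes had one. Lhx1, a LIM homeobox factor of the anterior streak, had 3 of 8 with pileups of 76 to 96, and Wnt3, the ligand that starts the streak, 2 of 4 at 69 and 78. Around Nodal and activin genes the count was 16 of 78 (20.5%), of which Lefty1 and Lefty2, neighbouring inhibitors of Nodal on chromosome 1, shared the same 3 sites of 87, 79 and 80 fragments. Around Wnt genes it was 19 of 106 (17.9%, 11.8 to 26.3%), beside 25.0% of all gene-near EoV5 peaks. Of the Wnt genes, 13 of 16 had a site, beside 40.5% of all coding genes, without matching for the number of EoV5 peaks. Sfrp5 had 3 of 10, the promoter site printed above at 99 fragments and a pair upstream at 134 and 89, 0.201 and 0.695 kb from a peak of another list. Tcf7l1, a repressor at Wnt targets, had 3 of 9, at 62 to 95.

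Around FGF genes, 14 of 63 EoV5 peaks were EoV5-only (22.2%), with 4 of 12 at the receptor gene Fgfr2 (82 to 116 fragments) and 2 of 8 at Spry1, an inhibitor of FGF signalling (73 and 97). Around genes of epithelial-mesenchymal transition the count was 11 of 72 (15.3%, 8.75 to 25.3%). Of these, Cdh2, the N-cadherin gene, had 4 of 14, all inside the gene, at 139, 123, 139 and 103 fragments, and Fn1, the fibronectin gene, 2 of 5 at 118 and 68. Around pluripotency genes it was 15 of 52 (28.8%, 18.3 to 42.3%), with 2 of 5 at Esrrb, a nuclear receptor of naive cells (166 and 78), and 2 of 3 at Dppa2 (128 and 111).

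Genes of other cell types had shares in the same range. EoV5-only sites were 12 of 62 EoV5 peaks around neural plate genes (19.4%), 5 of 25 around fibroblast genes (20%) and 12 of 40 around extraembryonic genes (30.0%). In lists of unrelated genes they were 7 of 25 around skin keratins (28.0%, 14.3 to 47.6%) and 12 of 46 around synapse genes (26.1%, 15.6 to 40.3%). Pax7, a neural tube and muscle factor, had 3 of 14, of 183, 107 and 65 fragments. Grin2a, a glutamate receptor subunit gene, had 3 of 5 between 91 and 138. Col1a2 and Dcn, of fibroblast matrix, had 1 each at 159 and 104, Elf5, of trophoblast, 2 of 5 at 85 and 66, Ttr, of yolk sac, 2 of 2 at 82 and 74, Krt1 3 of 9 at 64 each, and Krt10 2 of 2 at 62 each. The interval of each list's share includes the 25.0% of all gene-near EoV5 peaks, except that of the presomitic mesoderm list, which lies below it.

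Of the 7 factors reintroduced in the study's double knockout lines, 2 had an EoV5-only site within 50 kb, beside 40.5% of all coding genes. Foxa2, a forkhead factor of endoderm, had 3 of 9 EoV5 peaks, all upstream: 227 fragments (198.4 to 258.5) at 18.9 kb, 147 (124.2 to 172.8) at 23.7 kb and 69 (53.7 to 87.3) at 35.9 kb. The first 2 lay 4.67 and 9.54 kb from the nearest peak of another list, and the tallest other EoV5 peak had 362 fragments. Msgn1, a bHLH factor of the presomitic mesoderm, had 1 of 3, of 62 fragments (47.5 to 79.5) at 10.2 kb downstream, beside an EoV5 peak of 452. Eomes, T, Mesp1, Mixl1 and Six2 had none, although EoV5 peaks were there, between 2 at T and 6 at Mixl1. For these 7 genes together, 4 of 33 EoV5 peaks were EoV5-only (12.1%, 4.82 to 27.3%).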

How the data were processed

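ChIP-seq peak lists of 4 T-box constructs (EoV5, EoVP16, EoGFP and BraGFP) were used, and samples were grouped by their titles. Per the submitters' processing notes, Bowtie2 2.3.4, MACS2 2.1.1.20160309.4 and bedtools 2.27.0 were among the tools used with mouse build mm10/GRCm38; their settings and the control are not given in the sources used here. The deposited lists of EoV5 and EoVP16 hold, in MACS2 column order, the signal (pileup at the summit, in whole fragments with no visible scaling to depth), the ratio (fold enrichment over the caller's background) and the -log10 p and q of the authors. The deposited GFP lists hold positions only, 1 list for 2 libraries each, and it is not stated how those libraries were joined. The minimum pileups come from the names of the deposited lists. Depth is unknown.

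Repeated entries and unplaced contigs were dropped, and peaks sharing 1 bp were called overlapping. The background was computed as (pileup + 1) / fold - 1. Coding genes (21887, GRCm38.p6 spans without exons) were searched within 50 kb of the peak midpoint, and location was compared within bands of pileup ending at the 0.1, 0.25, 0.5, 0.75 and 0.9 quantiles of the EoV5 list. Promoter windows came from RefSeq; those of chromosome 18 were not used here, so none of its 1277 EoV5 peaks (378 of them EoV5-only) counts as lying at a promoter or transcription start. Shares carry 95% Wilson intervals, differences Newcombe intervals and pileups exact Poisson intervals. The functions for gaps and overlaps between peaks were checked on simulated positions, and those for confidence intervals were not. Named genes were the 7 reintroduced factors, the gene nearest to each of the 10 tallest sites, the 8 genes with most sites, and in each of 15 lists the 2 genes with most sites, of which some are not reported here; promoter genes were chosen after seeing their values. The sites, genes and lists were chosen with earlier results of these data known. One name, Cripto, was not in the gene table. Alternatives covered the overlap rule, height, distance, window and chromosomes. Python 3.11, numpy, pandas and scipy were used.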

Additional observations from a re-analysis of the deposited data

How the results depend on the processing

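No paired analysis was possible because each construct has a single peak list and no replicate columns. Of 26 alternatives, 13 left their result within 1.5 times (counts) or within its 95% interval. The number of EoV5-only sites was 2486 at a pileup of at least 100, and 16633 with the EoGFP list left out of the rule. The share at gene ends was 13.0% within 5 kb (33.2% of the other EoV5 peaks), 1.85% by transcription start, 1.92% by transcription start without chromosome 18 (20.8% of the other EoV5 peaks) and 1.83% when weighted to the height of the other EoV5 peaks. The share inside genes was 39.5% beyond 5 kb. Coding genes with a site came to 20.1% within 10 kb, 57.8% within 100 kb and 39.3% with the other lists widened by 500 bp. Another EoV5 peak lay within 1 kb of 7.41% and within 10 kb of 41.6%. The median width was 670.2 bp when weighted to the heights of the other EoV5 peaks. The transcription start, the weighting of the gene-end share, the left-out lists, the 1 bp shift of the GFP starts and the promoter motif were chosen after seeing the data. The motif share around every summit and its alternatives were not run, since no genome sequence was used here. Low pileups limit the sites: at 61 fragments the Poisson interval runs 46.7 to 78.4.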

Other observations

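At 898 coding genes (4.10%) every EoV5 peak within 50 kb was EoV5-only, and at 299 of them no peak of the 3 other lists lay there either. Pcdh19, a protocadherin gene on X, had 5 of 5 EoV5 peaks in this state, the tallest of 91 fragments, with 0 peaks of the other lists. Ms4a20 and Ms4a8a, neighbouring members of a membrane protein family on chromosome 19, had 4 of 4 (tallest 108) with 0 other peaks. Cdh17, an intestinal cadherin gene, had 4 of 4 (tallest 108) with 3 EoVP16 peaks that did not overlap them, and Grb10, an imprinted adaptor gene, 3 of 3 (tallest 213) beside 6 BraGFP peaks, 1 EoGFP peak and 1 EoVP16 peak. These genes were chosen after their values were seen.

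Around 1110 olfactory receptor genes, 69 of 244 EoV5 peaks were EoV5-only (28.3%, 23.0 to 34.2%), and around 355 vomeronasal receptor genes 35 of 123 (28.5%, 21.2 to 37.0%), near the 25.0% of all gene-near EoV5 peaks. Around 397 zinc-finger genes named Zfp the share was 17.2% (137 of 797, 14.7 to 20%). The 1-Mb stretch with the most EoV5-only sites, from 39 Mb on chromosome 1, held 20 among 40 EoV5 peaks. EoV5-only sites lay on 1 of 1005 miRNA hairpins, Mir3547, and the other EoV5 peaks on 69.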
